A study of Mus musculus with 12 samples.

Results

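The small intestine of mice fasted for 24 h was compared with that of fed mice on 6 of the 12 2-colour arrays of a fasting series, 3 arrays for each group. The arrays were chosen by their labelled time point, 0 h (fed) or 24 h, and all 20281 probes that are no controls were followed. The mice were FVB males 6 weeks of age. During the fast they had water only and were housed in metabolic cages, and infrared warming was added from 24 h. Mice of both groups were killed between 9 and 10 am. In Cy3, every array held RNA pooled from 2 mice, with other mice in every pool, so that n = 3 pools per group. Standard errors and p-values rest on a single spread between pools for each probe. It was estimated over all 12 arrays of the series and moderated across probes. They therefore do not measure the spread of the 6 pools shown alone. In Cy5, all arrays held a common fed reference, and no array had the dyes exchanged. This Cy5 RNA was labelled as coming from 6 fed animals, except that the source label of fed replicate 3 names only the animals of its own Cy3 pool while its labelling protocol names all 6. The RNA came from the full thickness of the intestinal wall, hence from epithelium, lamina propria and muscle together.

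The small intestine is covered by a rapidly renewed epithelium. Stem cells in the crypts divide, and their descendants differentiate into absorptive enterocytes, goblet cells, enteroendocrine cells and Paneth cells. Enterocytes take part of their fuel from the lumen, mainly glutamine, and lose this supply when food is withheld. A fast lowers insulin and raises glucagon and glucocorticoids, and fatty acids released from adipose tissue then become a main fuel. Glucocorticoids act through a nuclear receptor that binds palindromic response elements near its target genes, whereas fatty acids can activate the nuclear receptor encoded by Ppara.

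The value of a probe was log2(Cy3/Cy5), referred to here as the log ratio, after background correction and quantile normalization, and the change is the mean of the 24 h pools minus the mean of the fed pools, given with its standard error (SE). A change was called where limma's adjusted p was under 0.05, and a gene that was not called is not thereby shown to be unchanged. The groups differ in more than the time without food, because their arrays were deposited in different scanner file formats. In Cy5 the fed arrays had median intensities of 133.5 to 142 and the 24 h arrays of 393 to 436, with Cy5 backgrounds of 70 to 71 and 188 to 218. The median Cy3 intensity was 216 to 249 and 167 to 172. Between 58.8% and 68.7% of probes were marked as well above background in Cy3 on fed arrays, against 91.0% to 96.0% on 24 h arrays. Across probes the normalized Cy5 channel, which holds fed RNA on every array, correlated at 0.974 to 0.987 among fed arrays, at 0.963 to 0.967 among 24 h arrays and at 0.891 to 0.913 between the groups. In this contrast the scanner format and the fast cannot be told apart. The change of each named gene is therefore given for Cy3 and Cy5 as well as for the log ratio, all on the log2 scale. The channels are left out for some genes and second probes that were not called. Where values follow a gene in parentheses, the change in the log ratio comes first, followed by its adjusted p where given and by the changes in Cy3 and Cy5, and genes with fewer than 3 fed values are marked. Fed replicate 3 stood apart from the other fed arrays, since its log ratios correlated at 0.226 and 0.196 with fed replicates 1 and 2, which correlated at 0.784 with each other.

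Of the 20279 probes tested, 2031 (10.0%) were called at 24 h, 762 (3.76%) higher and 1269 (6.26%) lower. Among the 8007 genes with a proper symbol, each measured by its brightest probe, 337 (4.21%) were higher and 488 (6.09%) lower, and the median change over all of them was 0.02 on the log2 scale. These shares are the background for the counts of all gene lists and markers below. The change reached 2-fold for 445 of the called probes, 168 higher and 277 lower. In the Cy3 channel alone 4989 probes (24.6%) were called, and 4138 (20.4%) in the Cy5 channel. Of the 2031 probes, 1005 were called in Cy3 in the same direction, 439 higher and 566 lower. As genes, 176 (2.20%) were higher and 280 (3.50%) lower in both the log ratio and Cy3. In 646 of the 2031 probes (31.8%) the Cy5 channel moved more than the Cy3 channel. The 24 h pools did not overlap with the fed pools in the log ratio of 3197 genes (39.9%). This was a condition for the largest rises and falls named below, so for those genes it is no result. With a single array left out, the number of called probes fell to between 575 (without fed replicate 1) and 1223 (without 24 h replicate 2), so losses of this kind are given for named genes or as counts for their lists.

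Genes that glucocorticoids are known to induce had the highest median of the lists of pathway genes at 24 h. The lists and their members were chosen with earlier results of these data known, so this rank describes them and tests nothing. Of 7 measured genes of the list of the glucocorticoid receptor and its targets, 4 were higher (57.1%, against 4.21% of all genes) and 0 lower. In Cy3 as well 3 of them were higher. The median change was 0.88, which is the value of Klf9, against 0.02 for all genes. Fkbp5, a co-chaperone that dampens the receptor, had log ratios of -0.34, -0.18 and 0.51 in the fed pools and of 1.23, 2.24 and 1.79 in the 24 h pools. All 24 h pools lay above all fed pools, and the highest fed value was that of replicate 3. Fkbp5 thus rose by 1.76 (SE 0.27, adjusted p 0.0024), with 1.88 in Cy3 and 0.12 in Cy5, although it was well above background on only 1 of the 3 fed arrays. Tsc22d3, also known as Gilz, a leucine zipper protein that mediates anti-inflammatory effects of glucocorticoids, had log ratios of -0.17, -0.30 and 0.50 in fed and of 1.57, 1.73 and 1.62 in 24 h pools. These groups were apart in the log ratio, which was a condition for naming this gene among the largest rises. The rise was 1.63 (SE 0.26, adjusted p 0.0029), to which Cy3 gave 0.85 and Cy5 -0.78. In Cy3 alone the pools overlapped, since fed replicate 3 (10.27) lay above 24 h replicate 1 (10.17). Sgk1, a kinase that regulates epithelial sodium transport, had values of -0.48, -0.27 and 0.16 in fed and of 1.00, 1.09 and 0.96 in 24 h pools. It rose by 1.21 (SE 0.17, adjusted p 0.0016), with 1.04 in Cy3 and -0.17 in Cy5. Klf9, a transcription factor, rose by 0.88 (adjusted p 0.029) but was not called in Cy3 (0.57 in Cy3, -0.31 in Cy5), and its call was lost without fed replicate 2 or 3 or without 24 h replicate 1 or 2. Dusp1, Errfi1 and Anxa1 changed by 0.32, 0.20 and -0.21 and were not called. In a bulk sample, a change in the number of cells of a type and a change in RNA per cell cannot be told apart, which holds for every gene below.

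Outside this list, Mt1 rose further. It encodes a metallothionein that binds zinc and copper and that both metals and glucocorticoids induce. Its log ratios were -0.73, -0.87 and 0.49 in fed and 2.03, 2.24 and 2.04 in 24 h pools. The 24 h pools were close to each other and far above every fed pool, while fed replicate 3 lay above the other fed pools. The rise was 2.47 (SE 0.28, adjusted p 0.00077), or 5.55-fold, with 2.56 in Cy3 and 0.09 in Cy5. Txnip, a protein that restrains glucose uptake and thioredoxin, had a value on 2 fed arrays only, 0.30 and -1.35 in replicates 1 and 3, against 1.17, 1.08 and 1.00 at 24 h. The fed values were far apart from each other and both lay below the 24 h values. Txnip rose by 1.61 (SE 0.43, adjusted p 0.034, Cy3 1.16, Cy5 -0.45), and without fed replicate 3 its rise was 0.78 and no longer called.

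The promoters of 3 of the named genes that rose hold a palindrome of glucocorticoid response elements, and they are shown because they hold it. Fkbp5, Tsc22d3 and Klf9 are not among these 3. The motif searched was the half-site GNACA, 3 bases of any kind and then TGTNC, a string that is its own reverse complement, in the 250 bases before each RefSeq start site (assembly GRCm38.p6). Each window is printed 5′ to 3′ on the strand of the gene, with the 13 bases of the match in capitals. The match starts 94 bases before the start site in Mt1 (chr8:94178839-94179088, + strand), 188 bases before it in Sgk1 (chr10:21993640-21993889, + strand, 1 of 6 windows of this gene) and 172 bases before it in Txnip (chr3:96557707-96557956, + strand).
Mt1: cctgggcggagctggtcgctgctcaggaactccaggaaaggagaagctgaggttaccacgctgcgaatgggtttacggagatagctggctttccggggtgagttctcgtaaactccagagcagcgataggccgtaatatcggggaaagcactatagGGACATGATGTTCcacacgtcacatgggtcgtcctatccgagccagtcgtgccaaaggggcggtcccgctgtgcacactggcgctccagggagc
Sgk1: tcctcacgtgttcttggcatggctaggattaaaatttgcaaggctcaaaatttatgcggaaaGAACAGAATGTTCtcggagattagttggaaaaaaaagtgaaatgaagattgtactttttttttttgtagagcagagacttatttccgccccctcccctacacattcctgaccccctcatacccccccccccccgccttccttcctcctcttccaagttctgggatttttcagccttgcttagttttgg
Txnip: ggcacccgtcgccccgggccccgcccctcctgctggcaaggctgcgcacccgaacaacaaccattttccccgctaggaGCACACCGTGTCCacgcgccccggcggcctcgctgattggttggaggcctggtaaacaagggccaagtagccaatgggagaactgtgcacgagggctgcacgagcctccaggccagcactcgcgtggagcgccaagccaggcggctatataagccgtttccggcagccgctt
Of 47 named genes called higher, 41 had a promoter in the table, and these 3 (3 of 56 windows, 5.36%) held a match. Of 56 named genes called lower, 49 had a promoter and 0 of their 62 windows matched, whereas 127 of all 32851 windows (0.387%) did. The named genes were chosen by their change, so these counts describe them and test nothing. The metal response elements TGCGCNC and TGCACNC, searched on both strands, were present in 21.4% of all windows, in 23.2% of those of the genes called higher and in 38.7% of those of the genes called lower, and once each in the windows of Mt1 and Txnip. A match of letters is no measured binding site.

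Genes that control the choice between carbohydrate and fat were among the largest rises. Pck1, the cytosolic phosphoenolpyruvate carboxykinase of gluconeogenesis and glyceroneogenesis, had log ratios of -0.33, -0.32 and 0.13 in fed and of 1.73, 1.71 and 1.66 in 24 h pools. The 24 h pools were nearly equal and lay far above the fed pools. Pck1 rose by 1.87 (SE 0.25, adjusted p 0.0011), all of it in Cy3 (1.88) and none in Cy5 (0.01). Pdk4, the kinase that inactivates pyruvate dehydrogenase and so spares glucose, had values of -0.24, -0.25 and -0.08 in fed and of 1.13, 1.56 and 1.56 in 24 h pools. Both groups were narrow and well apart, and the rise was 1.61 (SE 0.18, adjusted p 0.00052, Cy3 1.30, Cy5 -0.32). The list of glycolysis and gluconeogenesis had 4 of 33 measured genes higher (12.1%, against 4.21% of all genes) and 0 lower, with a median of 0.14. Besides Pck1 and Pdk4 these were Gpi1, glucose-6-phosphate isomerase (0.65, Cy3 0.66, Cy5 0.01), and Pck2, the mitochondrial carboxykinase (0.56, Cy3 0.61, Cy5 0.05), whose calls were both lost without at least 1 array, and a second probe of Gpi1 was not called (0.38). Pnpla2, which encodes the adipose triglyceride lipase, had log ratios of -0.27, -0.13 and -0.65 in fed and of 1.41, 1.61 and 1.58 in 24 h pools by its brightest probe. That probe rose by 1.88 (adjusted p 0.0011), more by the fall in Cy5 (-1.05) than by the rise in Cy3 (0.83), and a second probe of Pnpla2 went the other way (-0.78, adjusted p 0.0093, Cy3 -0.51, Cy5 0.27). The direction of Pnpla2 thus differed between its probes.

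**Figure D1:**
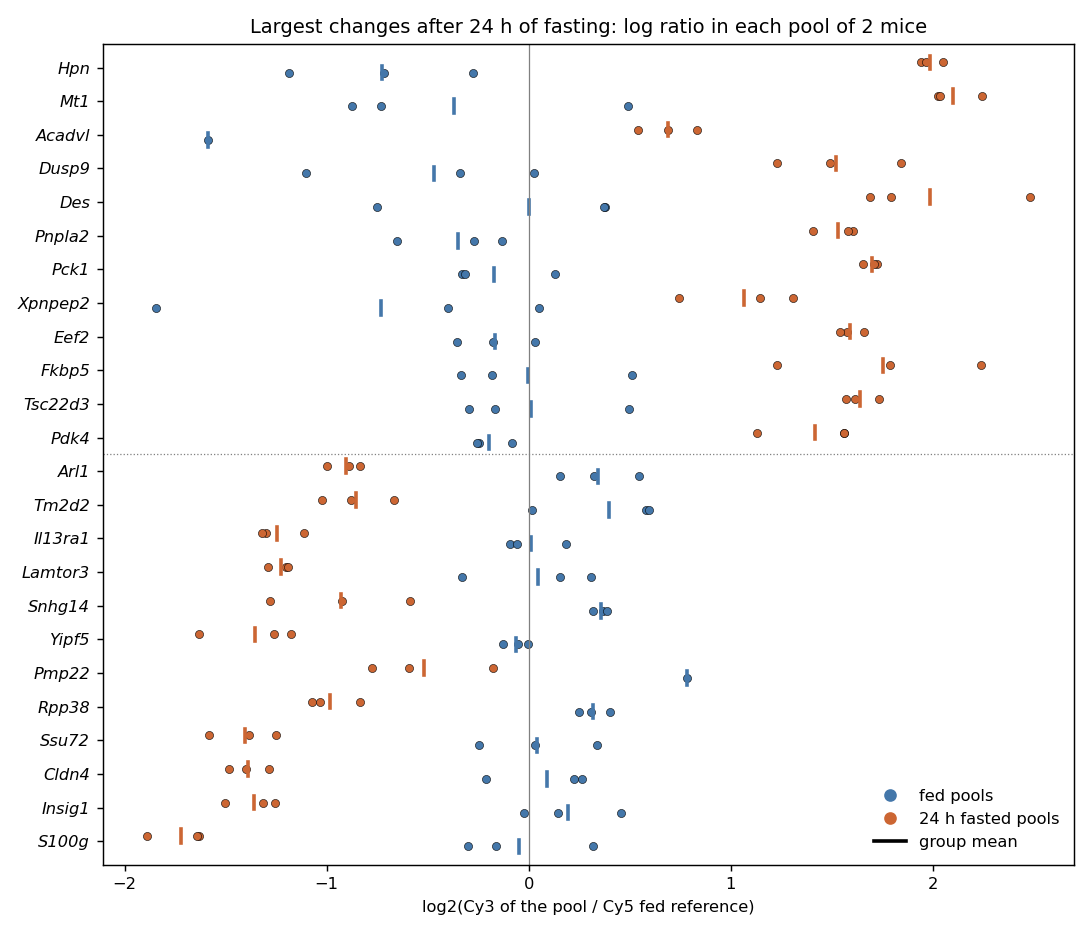
Log ratio, log2(Cy3 of the pool over Cy5 of the fed reference), in each pool of 2 mice (points, 3 per group where measured) for the 12 largest rises and the 12 largest falls that were also called in Cy3, with the group means as vertical bars. Every 24 h pool lies outside the fed pools of the same gene because only such genes were taken, and Acadvl and Pmp22 have a single fed value.

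Genes of fatty-acid oxidation and ketogenesis moved both ways, with 6 of 29 measured genes higher, 5 lower and a median of 0.09. These were 20.7% and 17.2%, against 4.21% and 6.09% of all genes. Acadvl, the very long-chain acyl-CoA dehydrogenase that starts mitochondrial oxidation, had a value on 1 fed array only (-1.59 in replicate 3), against 0.54, 0.83 and 0.69 at 24 h. The rise of 2.28 (SE 0.39, adjusted p 0.0092, Cy3 1.95, Cy5 -0.33) therefore rests on a lone fed value, and with the outlier spots kept it was 0.88 and not called (adjusted p 0.26). Ucp2, a mitochondrial carrier, rose by 1.45 (adjusted p 0.037, Cy3 0.87, Cy5 -0.57) with 2 fed values. Ppara rose by 0.90 (adjusted p 0.036, Cy3 0.85, Cy5 -0.05), although the Cy3 change was not called on its own. The log ratio of Acot1, an acyl-CoA thioesterase, was higher by 0.85 (adjusted p 0.0066) through Cy5 alone (-0.86), since its Cy3 change was -0.01. The genes that fell were those of other steps. Oxct1, with which extrahepatic cells use ketone bodies, fell by 1.00 on the log2 scale (adjusted p 0.012, Cy3 -0.81, Cy5 0.20). Its second probe was at -0.99 (Cy3 -0.75, Cy5 0.24) and another at 0.01, in which both channels fell (Cy3 -0.71, Cy5 -0.72). Crot, the peroxisomal carnitine octanoyltransferase, changed by -0.79 (Cy3 -0.63, Cy5 0.16), Etfa, which passes electrons to the respiratory chain, by -0.78 (Cy3 -1.07, Cy5 -0.29), Ehhadh, a peroxisomal bifunctional enzyme, by -0.79 (Cy3 -0.70, Cy5 0.09) and Acat1, a mitochondrial thiolase, by -0.55 (Cy3 -0.39, Cy5 0.17). Acadm, the medium-chain dehydrogenase, changed by -0.63 (adjusted p 0.074, Cy3 -0.68, Cy5 -0.05, 2 values at 24 h) and was not called. The calls of Ucp2 and Ppara were lost without at least 1 array, and all 5 lower calls were lost without fed replicate 1. With 1 array left out, between 3 and 5 genes of this list were higher and between 0 and 4 lower.

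Of 33 measured genes of lipid uptake, storage and synthesis, 3 were higher (9.09%) and 2 lower (6.06%), against 4.21% and 6.09% of all genes. Besides Pnpla2, the rises were those of Scd1, the stearoyl-CoA desaturase (1.15, adjusted p 0.021, Cy3 1.25, Cy5 0.09), and of Mgll, which hydrolyses monoglycerides (0.78, Cy3 0.75, Cy5 -0.03). Gk, glycerol kinase (-0.92, Cy3 -0.55, Cy5 0.37), and Nr1h3, a nuclear receptor for oxysterols (-0.55, Cy3 -0.70, Cy5 -0.16), fell. All of these calls but that of Pnpla2 were lost without at least 1 array. In the list of cholesterol synthesis, 2 of 22 measured genes were higher and 2 lower (9.09% each). Insig1, which holds the sterol-sensing complex of SREBP in the endoplasmic reticulum, had log ratios of -0.02, 0.14 and 0.46 in fed and of -1.50, -1.26 and -1.31 in 24 h pools. No pools overlapped, and the fall was 1.55 on the log2 scale (SE 0.21, adjusted p 0.0013), with -0.91 in Cy3 and 0.64 in Cy5. Cyp51, lanosterol demethylase, changed by -0.92 (adjusted p 0.029, Cy3 -0.87, Cy5 0.05), and its second probe by -0.74 through Cy5 (Cy3 0.12, Cy5 0.86). The log ratios of Tm7sf2, a sterol reductase (0.77, Cy3 -0.23, Cy5 -1.01), and Scap, the escort of SREBP (0.55, Cy3 0.04, Cy5 -0.52), were higher without a called rise in Cy3. Cyp51, Tm7sf2 and Scap lost their calls without at least 1 array.

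The largest fall also called in Cy3 was that of S100g, the calcium-binding protein of absorptive cells known as calbindin D9k. Its log ratios were 0.32, -0.16 and -0.30 in fed and -1.63, -1.64 and -1.89 in 24 h pools. The groups were more than 1 log2 unit apart, and S100g fell by 1.67 (SE 0.20, adjusted p 0.00077), or -1.44 in Cy3 and 0.23 in Cy5. Of 21 measured brush-border enzymes and nutrient transporters, 3 were higher and 3 lower, with a median of 0.21. Each share was 14.3%, against 4.21% and 6.09% of all genes. Slc39a4, the zinc importer (-0.93, adjusted p 0.018, Cy3 -1.35, Cy5 -0.42), and Slc40a1, the iron exporter ferroportin (-0.72, adjusted p 0.039, Cy3 -1.04, Cy5 -0.32), were the other called falls. The rises were in Mgam, the maltase-glucoamylase (1.13, adjusted p 0.018, Cy3 0.82, Cy5 -0.31, 2 fed values), Slc7a8, an amino acid transporter (0.98, Cy3 0.49, Cy5 -0.49), and Slc34a2, a phosphate transporter (0.96, adjusted p 0.026, Cy3 0.82, Cy5 -0.14), whose second probe was not called (0.12). Of these, Slc34a2 was called in Cy3 too. Calls other than that of S100g were lost without at least 1 array. Vdr, the vitamin D receptor, for which S100g is a known target, had 3 probes. Its brightest probe was not called (0.93, adjusted p 0.083, Cy3 1.06, Cy5 0.13), a second was higher by 1.16 (adjusted p 0.0072, Cy3 1.12, Cy5 -0.04) and another by 1.78 (adjusted p 0.0029, Cy3 0.75, Cy5 -1.03).

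Other large rises were spread over unrelated functions. Hpn, a serine protease of the cell surface, had log ratios of -0.72, -0.28 and -1.18 in fed and of 1.94, 2.05 and 1.97 in 24 h pools. It was the largest change of any gene measured by its brightest probe, at 2.71 (SE 0.51, adjusted p 0.0071, Cy3 2.43, Cy5 -0.28), or 6.55-fold. The fed pools were spread widely and the 24 h pools were tight. Dusp9, a phosphatase of MAP kinases, rose by 1.99 (adjusted p 0.0044, Cy3 1.48, Cy5 -0.51), but its second probe was not called (0.18, adjusted p 0.61). Xpnpep2, a membrane aminopeptidase, rose by 1.80 (adjusted p 0.038, Cy3 1.35, Cy5 -0.45), a call lost when any array but fed replicate 2 was left out. Eef2, an elongation factor of translation, rose by 1.76 (adjusted p 0.014, Cy3 1.63, Cy5 -0.12), and its second probe was at 1.24 but not called. Without fed replicate 3 the call of Eef2 was lost.

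Several falls were close to that of S100g in size. Cldn4, a claudin of tight junctions, had log ratios of -0.21, 0.22 and 0.27 in fed and of -1.40, -1.29 and -1.48 in 24 h pools, which did not overlap. It fell by 1.48 (SE 0.19, adjusted p 0.0013, Cy3 -1.02, Cy5 0.46). Il13ra1, a receptor chain for interleukin-13, changed by -1.26 (adjusted p 0.0011, Cy3 -0.94, Cy5 0.32). Yipf5, a protein of the Golgi, changed by -1.30 (adjusted p 0.0011, Cy3 -0.86, Cy5 0.44) and the GTPase Arl1 by -1.25 (adjusted p 0.012, Cy3 -1.24, Cy5 0.01). Lamtor3, a lysosomal scaffold of the mTORC1 and MAP kinase pathways, changed by -1.27 (adjusted p 0.0022, Cy3 -0.99, Cy5 0.29), but its second probe was at 0.23 and not called. Ssu72, a phosphatase of RNA polymerase II, changed by -1.45 (adjusted p 0.0027, Cy3 -0.89, Cy5 0.55), Rpp38, a subunit of ribonuclease P, by -1.30 (adjusted p 0.00077, Cy3 -0.83, Cy5 0.47) and Tm2d2 by -1.25 (adjusted p 0.0058, Cy3 -0.90, Cy5 0.35). Snhg14, a long noncoding RNA, changed by -1.29 (adjusted p 0.0012, Cy3 -0.58, Cy5 0.71), and by -1.27 at its brightest probe with no fall in Cy3 (0.08, Cy5 1.35). Pmp22, a membrane protein of Schwann and epithelial cells, changed by -1.30 (adjusted p 0.018, Cy3 -1.57, Cy5 -0.27) with 1 fed value, 0.78, against -0.59, -0.18 and -0.78 at 24 h. The change of Pmp22 was -0.71 with outlier spots kept and -0.11 with control spots kept in the quantile step, neither called, and its call was also lost without 24 h replicate 1 or without moderation of the variance. Without fed replicate 1 the call of Arl1 was lost.

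Subunits of the respiratory chain, which carries electrons to oxygen and drives ATP synthase, had the lowest median of the lists of pathway genes at -0.48. Of 62 measured genes 19 were lower and 2 higher, where 6.09% of all genes were lower, and 10 of the 19 were lower in Cy3 as well. Atp5md, a small subunit of ATP synthase, had log ratios of 0.12, -0.10 and 0.03 in fed and of -1.34, -0.98 and -1.13 in 24 h pools. The groups were apart by almost 1 log2 unit, and Atp5md fell by 1.17 (SE 0.16, adjusted p 0.0013, Cy3 -1.30, Cy5 -0.13). A second subunit of ATP synthase, Atp5k, changed by -1.12 (adjusted p 0.0062, Cy3 -0.92, Cy5 0.20). Subunits of complex I were Ndufb2 (-1.02, Cy3 -0.69, Cy5 0.33), Ndufa7 (-1.02, Cy3 -0.73, Cy5 0.29) and Ndufb8 (-1.07, Cy3 -0.45, Cy5 0.62), the last not called in Cy3. Cytochrome c itself, Cycs, changed by -0.96 (adjusted p 0.019, Cy3 -0.81, Cy5 0.15, 2 fed values). The 2 rises were Cox6a2, a subunit of cytochrome oxidase typical of striated muscle (0.89, Cy3 1.47, Cy5 0.57), and Ndufv3 of complex I (0.59, Cy3 0.70, Cy5 0.11). Of the 19 genes, 1 (Ndufs5-ps) carries the symbol of a pseudogene today. The count of 19 fell to 4 without fed replicate 1, to 8 without fed replicate 3, to 5 without 24 h replicate 1 and to 12 without 24 h replicate 3. The median of the list relative to all genes was below 0 in all settings but 1, and with the control spots kept in the quantile step it was above 0 (0.26), with 5 genes higher and 1 lower.

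Proteasome and ubiquitin genes had a median of -0.34, with 7 of 43 measured genes lower and 2 higher, where 6.09% of all genes were lower and 4.21% higher. Psma6, Psma7 and Psma1, subunits of the outer rings of the core particle, changed by -1.12 (adjusted p 0.0042, Cy3 -1.20, Cy5 -0.08), -1.04 (adjusted p 0.013, Cy3 -0.75, Cy5 0.29) and -0.77 (adjusted p 0.045, Cy3 -0.93, Cy5 -0.16, 2 fed values). Psma7 had a second probe that was not called (-0.33, Cy3 -1.22, Cy5 -0.89). Psmd5, an assembly chaperone of the regulatory particle, changed by -0.65 (Cy3 -0.84, Cy5 -0.19). One of the 7, Psmc3ip, entered by its symbol and is no subunit. Among the rises was that of Psmd11 of the regulatory particle (0.68, Cy3 0.68, Cy5 0.00). Of these named genes Psma6 alone kept its call whichever array was left out, and the count of 7 fell to 2 without fed replicate 1 or 24 h replicate 1 and to 3 without fed replicate 3. Of 58 cytosolic ribosomal protein genes 4 were lower and 0 higher, with a median of -0.22. They were Rps27l (-1.12, Cy3 -1.17, Cy5 -0.04, 2 fed values), Rpl22l1 (-0.87, Cy3 -0.65, Cy5 0.22), Rpl9 (-0.75, Cy3 -0.61, Cy5 0.14) and Rpl39 (-0.65, Cy3 -0.72, Cy5 -0.07), and at 6.90% their share was close to the 6.09% of all genes. This list turned to 15 higher and 0 lower, with a median of 0.59, when control spots were kept in the quantile step, and all 4 calls were lost without 24 h replicate 1.

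**Figure D2:**
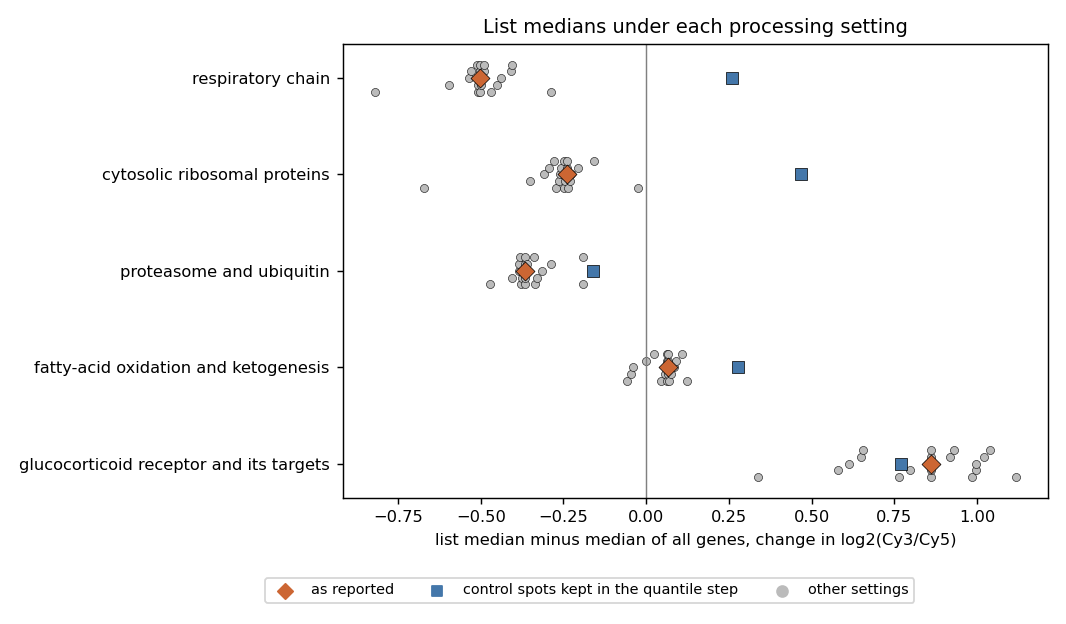
Median change of the log ratio of 5 gene lists minus the median of all genes (log2, horizontal axis) under the reported processing (diamonds) and 22 alternatives (squares for control spots kept in the quantile step, circles for the others). The glucocorticoid list stays between 0.34 and 1.12 and the proteasome list below 0, whereas the respiratory chain and ribosomal proteins move above 0 with control spots kept.

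Cell-cycle and DNA-replication genes had 7 of 65 measured members lower and 2 higher, with a median of -0.06. These were 10.8% and 3.08%, against 6.09% and 4.21% of all genes. Those that fell in Cy3 too were Ccng2 (-0.89, adjusted p 0.0042, Cy3 -0.94, Cy5 -0.05) and Ccng1 (-0.75, adjusted p 0.023, Cy3 -0.91, Cy5 -0.16), cyclins linked to arrest, Cdkn2b, an inhibitor of cyclin-dependent kinases (-0.88, adjusted p 0.014, Cy3 -0.92, Cy5 -0.04), and Mcm3 of the replicative helicase (-0.54, adjusted p 0.038), in which both channels fell (Cy3 -1.64, Cy5 -1.10). The second probe of Ccng1 was not called (0.13, Cy3 -0.59, Cy5 -0.73). Cdk1, the mitotic kinase, changed by -0.72 (Cy3 -0.59, Cy5 0.13) and was not called in Cy3. Plk1, a mitotic kinase, rose by 0.94 (adjusted p 0.018) with both channels up (Cy3 1.83, Cy5 0.89), and its second probe was not called (0.43). Pcna, the sliding clamp of replication, was not called (-0.55, adjusted p 0.12, Cy3 -0.52, Cy5 0.03). Ccna2, cyclin A, was not called at its brightest probe (0.05, Cy3 -0.55, Cy5 -0.60, 2 values at 24 h), but was lower at another (-0.67, adjusted p 0.018, Cy3 -0.56, Cy5 0.12). Apart from Ccng2, the calls of these genes at their brightest probe were lost without at least 1 array, and the count of 7 lower genes fell to 1 without fed replicate 1, to 2 without fed replicate 3 or 24 h replicate 1 and to 3 without 24 h replicate 2.

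Genes of apoptosis included members of both sides among the changes. Of 39 measured genes 3 were higher (7.69%) and 6 lower (15.4%), against 4.21% and 6.09% of all genes. The caspases Casp1, which activates inflammatory cytokines (-0.98, adjusted p 0.022, Cy3 -0.84, Cy5 0.13) and Casp6, an executioner (-0.89, adjusted p 0.012, Cy3 -0.84, Cy5 0.06), fell, as did Cycs. Birc2, an inhibitor of apoptosis, had log ratios of 0.33, 0.19 and 0.20 in fed and of -0.63, -0.65 and -0.80 in 24 h pools. It fell by 0.93 (SE 0.15, adjusted p 0.0037, Cy3 -0.67, Cy5 0.26) with narrow groups far apart. The higher genes were 2 members of the BH3-only group, which promote apoptosis, Pmaip1 (0.91, adjusted p 0.017, Cy3 1.90, Cy5 0.99) and Bcl2l11 (0.63, adjusted p 0.017, Cy3 0.67, Cy5 0.04), and Ripk1, a kinase of death-receptor signalling (0.64, Cy3 1.03, Cy5 0.38). Of the 9 genes Birc2 alone kept its call whichever array was left out. The count of 6 lower genes fell to 1 without 24 h replicate 1, to 2 without fed replicate 1 and to 3 without fed replicate 3 or 24 h replicate 3, and the count of 3 higher genes fell to 0 without fed replicate 1. Atm, a kinase of the DNA damage response, was not called (0.77, adjusted p 0.37, Cy3 1.55, Cy5 0.78).

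Amino acid and urea-cycle enzymes had a median near 0, with 5 of 39 measured genes lower and 2 higher. These were 12.8% and 5.13%, against 6.09% and 4.21% of all genes. Aldh18a1, which makes the proline and ornithine precursor from glutamate, rose by 1.25 (adjusted p 0.036, Cy3 1.10, Cy5 -0.14). Those that fell were Mccc1 of leucine breakdown (-0.94, Cy3 -0.70, Cy5 0.24), Mat2a, which makes S-adenosylmethionine (-0.91, Cy3 -0.78, Cy5 0.13), Sat1 of polyamine breakdown (-0.88, Cy3 -0.92, Cy5 -0.04), Ddc, the aromatic amino acid decarboxylase (-0.81, Cy3 -1.12, Cy5 -0.31), and Oaz1, which limits polyamine synthesis (-0.74, Cy3 -1.10, Cy5 -0.36). Without fed replicate 1, or without 24 h replicate 1, 0 genes of the list were called by limma. Enzymes around glutamine and glutamate were mostly not called. Glul, glutamine synthetase, was at 0.29 (adjusted p 0.34, Cy3 1.19, Cy5 0.89) by its brightest probe and higher at another (1.06, adjusted p 0.018, Cy3 1.18, Cy5 0.11). Glud1, glutamate dehydrogenase, changed by 0.49 (adjusted p 0.11, Cy3 0.61, Cy5 0.11), Oat, ornithine aminotransferase, by -0.48 (adjusted p 0.17, Cy3 -0.37, Cy5 0.11), Asns, asparagine synthetase, by 0.33 (adjusted p 0.35, Cy3 -0.01, Cy5 -0.34), and Prodh, proline dehydrogenase, by 0.07 (adjusted p 0.84, Cy3 -0.08, Cy5 -0.15). Fah, the last enzyme of tyrosine breakdown, missed the threshold at 0.79 (adjusted p 0.053) with both channels up (Cy3 2.27, Cy5 1.48).

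The citric-acid cycle had 2 of 19 measured genes lower (10.5%, against 6.09% of all genes) and 0 higher. They were Fh1, fumarase (-0.76, Cy3 -0.14, Cy5 0.63, 2 fed values), and Suclg1 of succinyl-CoA ligase (-0.65, Cy3 -0.27, Cy5 0.38), neither called in Cy3. Ogdh, of oxoglutarate dehydrogenase, was not called (0.91, adjusted p 0.20, Cy3 0.45, Cy5 -0.46), nor was malic enzyme, Me1 (-0.61, adjusted p 0.064, Cy3 -0.94, Cy5 -0.33). Among metallothioneins and antioxidant enzymes 4 of 23 were higher (17.4%, against 4.21% of all genes) and 0 lower. Gpx3, a secreted glutathione peroxidase, changed by 1.44 (adjusted p 0.017, Cy3 0.70, Cy5 -0.74), while its second probe was not called (-0.29), and the log ratio of Hmox1, heme oxygenase, was higher by 0.69 through Cy5 alone (Cy3 -0.09, Cy5 -0.79). Enzymes of xenobiotic and retinoid metabolism had 3 of 14 measured genes lower (21.4%) and 0 higher. All 3 were called in Cy3 too, where 3.50% of all genes were lower in both. These were Gsta4, a glutathione transferase (-1.09, Cy3 -1.11, Cy5 -0.01, 2 fed values), Aldh1a1, a retinal dehydrogenase (-0.70, Cy3 -0.98, Cy5 -0.28), and Mgst1, a microsomal glutathione transferase (-0.55, Cy3 -0.79, Cy5 -0.24), of which Aldh1a1 (0.44) and Mgst1 (0.42) turned positive with control spots kept in the quantile step. Fh1, Suclg1, Gpx3, Hmox1, Gsta4, Aldh1a1 and Mgst1 each lost the call without at least 1 array. Adh1, an alcohol dehydrogenase (0.06, adjusted p 0.89, Cy3 -0.11, Cy5 -0.17), was not called, nor were Gfpt1 (0.09, Cy3 -0.20, Cy5 -0.29) and Gnpnat1 (-0.63, adjusted p 0.12, Cy3 -0.57, Cy5 0.06) of hexosamine synthesis, nor Rxra, the partner of Ppara (0.49, adjusted p 0.56, Cy3 1.04, Cy5 0.55).

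Genes of energy sensing, the circadian clock, autophagy and protein folding that were called in the log ratio were mostly not called in Cy3. Of 31 measured genes of insulin, growth and energy sensing, 3 were higher (9.68%) and 1 lower (3.23%), against 4.21% and 6.09% of all genes. Stk11, the kinase upstream of AMP-activated kinase, rose by 0.69 (adjusted p 0.014, Cy3 0.83, Cy5 0.14) and lost its call without fed replicate 1, and it was well above background on 1 fed array. Foxo1, a transcription factor that insulin restrains (0.96, adjusted p 0.020, Cy3 0.63, Cy5 -0.33), and Igfbp2, which binds insulin-like growth factors (0.79, Cy3 0.17, Cy5 -0.62), were not called in Cy3. Prkab2, a subunit of AMP-activated kinase, was lower in the log ratio (-0.63) while its Cy3 signal, which was not well above background on any fed array, was not lower (0.50, Cy5 1.12). Of 8 measured circadian clock genes, whose median was 0.30, 2 were higher (25%, against 4.21% of all genes) and 0 lower. They were Cry2, a repressor of the clock (1.06, adjusted p 0.0044, Cy3 0.43, Cy5 -0.63), and Arntl, its activator (0.56, Cy3 0.15, Cy5 -0.41), neither called in Cy3 and Arntl not well above background on any fed array (at least 1.05-fold higher in Cy3). Gabarapl2, of the family that builds autophagosomes, was also not well above background on any fed array and was at least 1.75-fold higher at 24 h. By the fit it rose by 1.00 (adjusted p 0.0071, Cy3 0.82, Cy5 -0.18), with log ratios of -0.16, -0.17 and -0.39 in fed and of 0.94, 0.32 and 1.02 in 24 h pools. With Tfeb, a regulator of lysosomal genes (0.67, Cy3 0.64, Cy5 -0.03, second probe 0.15, not called), it made up the 2 rises among 28 measured genes of lysosome and autophagy (7.14%, against 4.21% of all genes), with 0 lower. Chaperones had 3 of 29 higher (10.3%) and 1 lower (3.45%). The log ratios of the mitochondrial chaperonin partners Hspd1 (1.37, adjusted p 0.0092, Cy3 0.21, Cy5 -1.16) and Hspe1 (-0.72, Cy3 -0.45, Cy5 0.27) went in opposite directions and neither was called in Cy3. Hspb1, a small heat shock protein (0.99, Cy3 0.43, Cy5 -0.56), and Fkbp4, a co-chaperone of steroid receptors (0.48, adjusted p 0.045, Cy3 0.79, Cy5 0.30), were higher. The calls of Foxo1, Igfbp2, Prkab2, Arntl, Tfeb, Hspe1, Hspb1 and Fkbp4 were lost without at least 1 array.

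**Figure D3:**
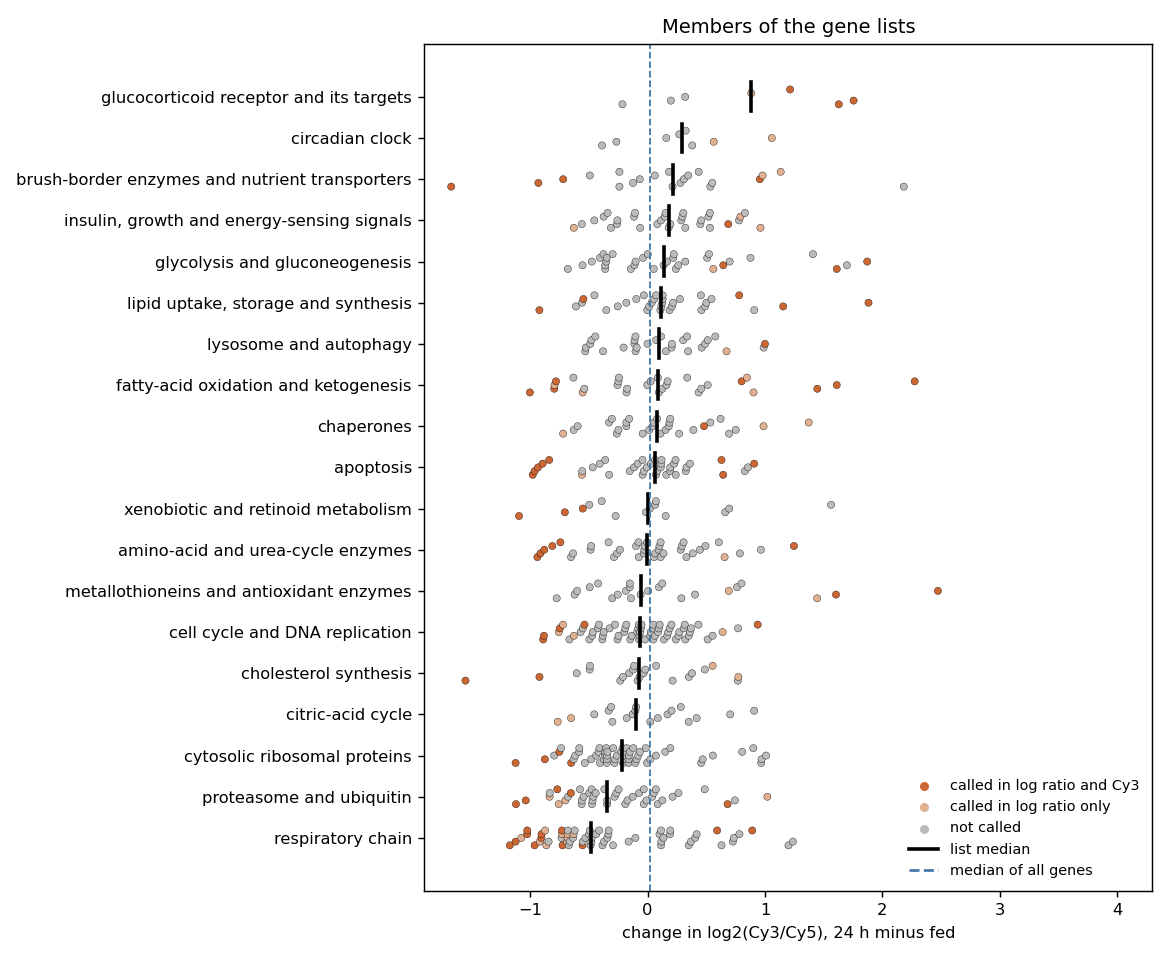
Change in log2(Cy3/Cy5), 24 h minus fed, of every measured member of 19 gene lists (points, coloured by whether it was called in the log ratio and in Cy3), with the list median as a black bar and the median of all genes, 0.02, as a dashed line. The glucocorticoid list, with 7 measured genes, has the highest median, 0.88, and the respiratory chain the lowest, -0.48. Most members of most lists were not called, and the lists were chosen with earlier results of these data known.

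The cell types of the wall were checked through marker genes. The absorptive enterocyte markers Vil1 (0.44), Apoa4 (-0.10), Lct (-0.24, 1 fed value) and Anpep (2.18, adjusted p 0.088) were well above background in both groups, and 0 of the 4 were called. Smooth muscle markers had 4 of 10 measured genes higher (40%, against 4.21% of all genes) and 0 lower. Des, the intermediate filament protein of muscle, had log ratios of 0.38, 0.37 and -0.75 in fed and of 2.48, 1.80 and 1.69 in 24 h pools, with fed replicate 3 the lowest and no overlap. Des rose by 1.99 (SE 0.37, adjusted p 0.0071, Cy3 1.83, Cy5 -0.16). Mylk, myosin light chain kinase (1.21, Cy3 1.17, Cy5 -0.04, 2 fed values), Smtn, smoothelin (1.12, Cy3 0.64, Cy5 -0.48), and Cald1, caldesmon (0.89, Cy3 0.44, Cy5 -0.45), were higher too, whereas Myh11 (0.36, Cy3 0.47, Cy5 0.11), Actg2 (0.50, Cy3 -0.31, Cy5 -0.81), Acta2 (0.96, Cy3 0.36, Cy5 -0.60) and Cnn1 (-0.18, Cy3 -1.20, Cy5 -1.02) were not called. The summed Cy3 signal of the 8 members measured on all arrays was 6693 to 7857 in fed and 6130 to 7850 in 24 h pools, which overlap. Without a single array, between 1 and 3 of the smooth muscle genes were called.

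Of 3 measured goblet cell markers, 2 were higher (66.7%, against 4.21% of all genes). They were Spdef, a transcription factor of secretory cells (0.85, adjusted p 0.033, Cy3 1.97, Cy5 1.12), and Fcgbp, a mucus protein (0.74, adjusted p 0.035, Cy3 1.20, Cy5 0.46), while Agr2 was not called (-0.32, Cy3 -0.26, Cy5 0.06). The summed Cy3 signal of the 3 markers was 8897 to 11368 in fed and 18192 to 21350 in 24 h pools, without overlap. However, the calls of Spdef and Fcgbp were both lost without fed replicate 1 or 2 or 24 h replicate 1 or 3, and Cy5 was higher in both genes too. Single markers were lower for B and plasma cells (Jchain, -0.81, adjusted p 0.044, Cy3 -0.49, Cy5 0.32, 1 of 4), macrophages and dendritic cells (H2-Ab1, -0.76, adjusted p 0.028, Cy3 -0.72, Cy5 0.05, 1 of 4) and enteroendocrine cells (Nts, -0.80, adjusted p 0.028, Cy3 -0.50, Cy5 0.29, 1 of 4). The call of Jchain was lost whichever array was left out. Those of H2-Ab1 and Nts were both lost without fed replicate 1 or 3 or 24 h replicate 1, and H2-Ab1 also without 24 h replicate 3 and Nts without 24 h replicate 2. The summed Cy3 signal of the 4 macrophage and dendritic cell markers was 11865 to 43102 in fed and 12572 to 15731 in 24 h pools. Markers of T cells, Paneth cells, fibroblasts, endothelium, enteric neurons and glia, adipose tissue, erythroid cells, exocrine pancreas and liver, between 1 and 3 measured genes each, had 0 calls by limma. Cpa1, of the exocrine pancreas, ranged from 4349 to 29350 in fed and from 4493 to 26677 in 24 h pools in Cy3, and the groups overlapped. The part of these cell types in the results above was not tested.

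Some of the largest log ratio changes lay in the reference channel. Camta1, a transcription activator, had log ratios of 0.57, 0.74 and 0.69 in fed and of -1.54, -1.87 and -2.32 in 24 h pools. The fed values were close together, the 24 h values were more spread, and the groups were far apart. Its change of -2.58 (adjusted p 0.00077) consisted of 2.28 in Cy5 and -0.29 in Cy3, and a second probe was not called (-0.20). Xist had a probe at -1.76 (adjusted p 0.00034, Cy3 -0.21, Cy5 1.55), whereas its brightest probe (-0.27) and another (-0.22) were not called. For Bcl2l1, an inhibitor of apoptosis, a probe was at -1.80 (adjusted p 0.010, Cy3 -0.28, Cy5 1.53), the brightest at 0.07 (Cy3 -2.07, Cy5 -2.14) and another at 0.34 (Cy3 0.26, Cy5 -0.07), the latter 2 not called. Among rises, Clptm1 changed by 1.90 (adjusted p 0.0046, 1 fed value) with -0.13 in Cy3 and -2.02 in Cy5, and the call was lost with outlier spots kept. Cdhr5, a cadherin of the brush border, moved more in Cy3 (1.32) than in Cy5 (-0.68), unlike these genes, but was not called in Cy3. It was higher by 2.00 (adjusted p 0.028), with fed values from -1.99 in replicate 3 to 0.66 in replicate 2. Its call was lost when any array but fed replicate 2 was left out (1.27 without fed replicate 3). The same fed RNA was to be in Cy5 on all arrays. These Cy5 values therefore show a difference between the arrays of the groups in a channel without fasted RNA. The 12 h arrays share the format of the 24 h arrays. Against them the log ratio at 24 h was lower for Camta1 (-2.14), Xist (-1.68) and Bcl2l1 (-1.53) by the probes that moved in Cy5. Clptm1 and Cdhr5 are not among the genes called as different from 12 h. The part of the scanner format in these values was not tested.

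**Figure D4:**
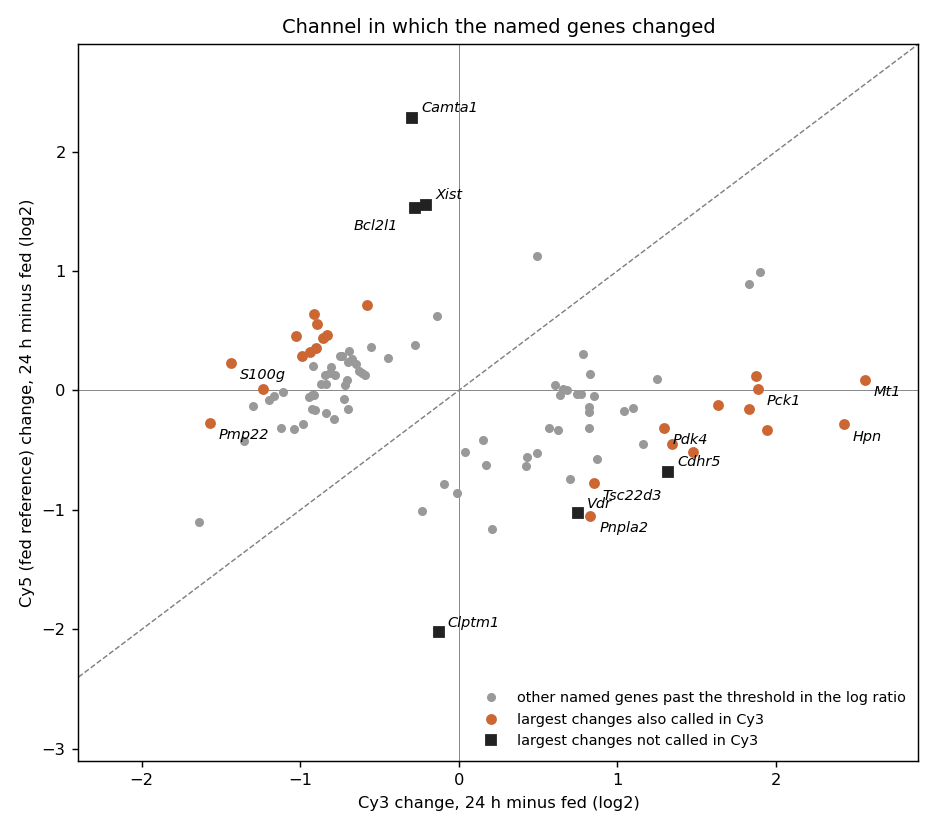
Change of the normalized Cy3 signal (horizontal, log2, 24 h minus fed) against that of the Cy5 fed reference (vertical, log2) for the named genes called in the log ratio. Mt1 (2.56 in Cy3, 0.09 in Cy5) and Pck1 (1.88 and 0.01) lie along the Cy3 axis, whereas Camta1 (-0.29 and 2.28) and Clptm1 (-0.13 and -2.02) lie along the Cy5 axis, and on the dashed line the log ratio would not change.

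Of the 103 named probes called in the log ratio, 20 were called in the same direction under all 22 alternatives, the Cy3 channel alone and every left-out array included. The 9 that were higher were Mt1, Pck1, Pdk4, Fkbp5, Tsc22d3, Des, Dusp9, Gabarapl2 and Pnpla2, the last with the opposite change at its second probe. The 11 that were lower were Insig1, Cldn4, Il13ra1, Birc2, Psma6, Lamtor3, Rpp38, Snhg14, Ssu72, Tm2d2 and Yipf5. These are results of single probes. The second probes of Dusp9 (0.18) and Lamtor3 (0.23) were not called, and the brightest probe of Snhg14 did not fall in Cy3 (0.08). S100g lost its call in 1 setting, with control spots kept in the quantile step (-0.88, adjusted p 0.11), and Sgk1 in 1, median centring of each array (0.53, adjusted p 0.088). For 68 of the 103 probes the call was lost without at least 1 array.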

How the data were processed

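RNA of the small intestine was measured on Agilent 2-colour arrays (60-mer Mouse Development), and groups were taken from the labelled time points. The intensities are those of the scanner files as the authors deposited them, made with Feature Extraction 6.1.1. They are median pixel values of spot and local background for Cy3 and for Cy5, before any correction, with flags for outlier, saturated and dim spots. The authors also deposited values of log10(Cy3/Cy5) for all arrays, in which some decimal points had moved, so that these were handled as a score and used only as an alternative. Of 244452 such cells, 276 were scaled back by their size and 89 left out. According to the paper's methods, background was subtracted, channels were quantile normalized and genes were tested by an analysis of variance with split factors, which was not repeated.

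Background was corrected with normexp (offset 50) on all 21446 spots, 1075 control spots and the spots marked as outliers (55 to 263 on each fed or 24 h array, at most 1115 on any array) were left out, saturated spots were kept, and the 24 channels of all 12 arrays were quantile normalized together. Spots of a probe were averaged, which gave 20281 probes, of which 20279 could be tested. The fit of log2(Cy3/Cy5) used limma 3.58.1 (R 4.3.3, data.table version 1.17.8) and gave each time point its own mean across all 12 arrays, with Benjamini-Hochberg adjustment of the p-values over all probes tested. The Cy3 and Cy5 channels were fitted in the same way. Where no array of a group had a probe well above background, the bound given is the mean of the brighter group over the dimmer group's detection limit, in Cy3 after loess and Aquantile normalization, and is open to dye bias. The number of arrays and the signal over background limit the precision. Steps were tested on simulated data. There the fit recovered 3 of 50 changes of 1.4-fold, 42 of 50 of 2-fold and 50 of 50 of 4-fold, so small changes were mostly missed there. These were set among 18110 simulated probes, and 8 unchanged probes were called. Far fewer probes changed in the simulation than were called in this contrast, so its rates need not hold here. Python 3.11.15 (pandas 2.3.3, matplotlib 3.10.9) was used for sequences and figures.

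Probes were named from the 24 h files and brought up to date through RefSeq's list of genes (assembly GRCm38.p6). The gene number matched for 9946 probes and the accession for a further 136, and the symbol changed for 5408. Named genes are the 12 largest rises and falls called in the log ratio and in Cy3 with pools apart, the 3 largest rises and falls not called in Cy3, up to 5 called members of each of the 19 pathway lists, and the genes that the paper discusses. A gene takes the value of its brightest probe, with the values of its other probes added where direction or call differs, while the first 2 parts of the rule take the probe that moved. Called members and markers outside this rule were named after their values were seen, and a few named genes are not reported here. The members and lists were chosen with earlier results of these data known. A further 22 settings were tried, listed with their effect at the end.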

Additional observations from a re-analysis of the deposited data

Results flagged for a closer look

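Named genes whose change from the fed pools differed between time points in the same limma fit, at an adjusted p under 0.05, are given here, with the difference in log ratio on the log2 scale. The fed pools cancel in these differences. The 12 h and 24 h arrays share a scanner file format, and 597 of all probes differed between them. At 24 h the log ratio was higher than at 12 h, by the differences in parentheses, for Mt1 (2.07), Glud1 (1.48) and Sgk1 (1.44). It was lower for Camta1 (-2.14), Xist (-1.68), Bcl2l1 (-1.53), Asns (-1.32), S100g (-1.24), Arl1 (-1.03), Snhg14 (-0.99), Slc39a4 (-0.96), H2-Ab1 (-0.88), Acot1 (-0.73), Prkab2 (-0.67) and Rpp38 (-0.65). Against the fed pools, the log ratio of Mt1 differed by 0.40 at 12 h and by 2.47 at 24 h, and that of Sgk1 by -0.22 and 1.21. For S100g the difference from fed was -0.43 after 12 h of fasting, then -1.67 at 24 h, and -4.10 in the 72 h pools.

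The 72 h arrays have another format than the 24 h arrays, so format and time cannot be told apart here, and 2149 of all probes differed. From 24 h to 72 h the log ratio was higher for Camta1 (2.64), Atm (1.96), Pmaip1 (1.93), Rxra (1.92), Bcl2l1 (1.64), Xist (1.46), Glul (1.28), Snhg14 (0.93), Arntl (0.89), Pdk4 (0.74), Birc2 (0.65), Prodh (0.56) and Rpp38 (0.56). It was lower for S100g (-2.43), Ogdh (-1.55), Slc34a2 (-1.50), Aldh18a1 (-1.47), Oat (-1.42), Slc40a1 (-1.39), Plk1 (-1.21), Pmp22 (-1.20), Tsc22d3 (-1.12), Hspe1 (-1.07), Gabarapl2 (-1.06), Mgll (-1.05), H2-Ab1 (-1.0), Casp1 (-0.99), Ccng2 (-0.98), Casp6 (-0.94), Pck2 (-0.92), Igfbp2 (-0.86), Cycs (-0.83), Slc39a4 (-0.77), Aldh1a1 (-0.69), Atp5md (-0.55), Nr1h3 (-0.54) and Acot1 (-0.54). The changes of Camta1 and Xist at 24 h lay in Cy5, as did that of Bcl2l1 by the probe named here. In each of these the log ratio at 24 h was below that at 12 h and below that at 72 h.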

How the results depend on the processing

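Beside leaving out arrays, 8 alternatives moved the number of called probes (2031, 762 higher and 1269 lower) by more than 1.5 times. It was 3993 with loess (1598 higher, 2395 lower), 3897 with median centring (1870 and 2027), 3274 from the deposited value table (1170 and 2104), 3394 with the 6 arrays of fed and 24 h alone (1496 higher), 6131 with array weights (3029 and 3102), 4989 in Cy3 alone (2250 and 2739), 3105 for the 24 h pools directly against Cy5 (1363 higher) and 1226 without moderation of the variance (384 and 842). Without background correction 782 probes were lower. With any 1 array left out the count also fell by more than 1.5 times, to 575 to 1223, 154 to 466 higher and 421 to 758 lower. The count in Cy3 then fell to 2370 to 4369, by more than 1.5 times only without fed replicate 1 or 24 h replicate 1 or 3. In Cy5 the count was 6862 with the 6 arrays alone. The share of calls that were higher, 37.5%, was 57.0% with control spots kept in the quantile step, a setting chosen after seeing the data (1349 higher, 1019 lower), and this step moved the median of all genes to 0.12. Under it the log ratios of Cycs (0.050), Hspe1 (0.17), Rps27l (0.033), Rpl39 (0.74), Aldh1a1 (0.44) and Mgst1 (0.42) reversed, and in Cy3 alone those of Clptm1 (-0.13), Tm7sf2 (-0.23), Prkab2 (0.50), Hmox1 (-0.094), Acot1 (-0.013), Bcl2l1 (-2.07) and Ccna2 (-0.55). The cause was not tested. Pools of the same number did not deviate together (correlations of -0.07, -0.09 and -0.001), and with the replicate block 1493 probes were called, and 80 of the 103 named calls were kept. In Cy3 fewer probes were marked as well above background on fed arrays, which leaves bounds for some of them, although the median Cy3 signal over background was 5.40 to 5.66 there and 4.39 to 4.53 on 24 h arrays.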
